A study of Mus musculus with 2 samples.

Results

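Mir320, Mir484 and Mir877 are microRNA hairpins known for reaching Dicer without being cut by Drosha, and they are described here in the mouse heart. They were chosen by gene symbol in GENCODE M21 and matched by Ensembl gene identifier, which gave 3 of the 2202 hairpins in the deposited tables. The tables count reads of short RNA from the hearts of 2 female B6CASTF1/J mice aged 25 days, labelled biological replicates 1 and 2 of 1 group. The age field gives days, although a free-text label names months as the unit. B6CASTF1/J is the F1 hybrid of a C57BL/6J and a CAST/EiJ parent, and the labels give no treatment. The labels number the animals separately but give both the same donor identifier. The samples are taken here as 2 animals by those numbers, which the labels do not settle. The SDs below (n = 2) therefore measure the spread between these samples. No control group was analysed here, and the only contrast is that of the 2 libraries.

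Most microRNAs are cut out of a long primary transcript by the nuclear enzyme Drosha with its partner DGCR8, exported by Exportin-5 and then trimmed by Dicer. Mirtrons such as Mir877 bypass Drosha because splicing frees a short intron that folds into the hairpin. Mir320 and Mir484 are known as hairpins made directly by RNA polymerase II, which starts and ends transcription at the hairpin and leaves a cap on its 5′ end. Such capped precursors leave the nucleus by Exportin-1, and mostly their 3′ arm (Mir320) or 5′ arm (Mir484) enters Argonaute. In the heart, miR-320 is known for targeting the small heat shock protein gene Hspb6, and miR-484 for targeting the mitochondrial fission gene Fis1.

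The sequences were read from the RefSeq microRNA table of build GRCm38.p6, where 2 of the 3 members, Mir484 and Mir877, matched. The mature products are shown because their seeds set which messages they can pair with. They run 5′ to 3′, and capitals mark the seed, bases 2 to 8.

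mmu-miR-484: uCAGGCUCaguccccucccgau

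mmu-miR-877-5p: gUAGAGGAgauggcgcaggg

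mmu-miR-877-3p: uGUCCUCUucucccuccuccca

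For each of these seeds, 0 other hairpins among the 1738 mature entries of the table carried the same 7 bases. The arms of Mir877 differ in composition, with 55.0% G in the 5p product and 90.9% pyrimidines in the 3p product. The longest run that Mir484 shared with any other counted hairpin was 12 nt, and for Mir877 it was 13 nt, both shorter than the mature products of 20 to 22 nt. Mir320, which had no entry in the RefSeq table, was not compared, and other places of the genome were not searched.

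The hairpin of Mir877 is shown with those of Mir1981 and Mir1224, mirtrons of other genes, because all 3 fill an intron from end to end. Capitals mark the first and last 2 bases, GU and AG, the letters of the splice sites.

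Mir877: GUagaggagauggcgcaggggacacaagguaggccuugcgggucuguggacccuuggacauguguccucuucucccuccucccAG

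Mir1981: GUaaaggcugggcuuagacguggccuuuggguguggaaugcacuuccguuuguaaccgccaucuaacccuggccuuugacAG

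Mir1224: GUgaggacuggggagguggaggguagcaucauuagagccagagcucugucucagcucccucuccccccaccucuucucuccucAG

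Among the 1005 hairpins of the RefSeq table, 30 (2.99%) begin with GU and end with AG.

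The 3 members sit in different surroundings in the genome (mm10 coordinates, GENCODE M21). Mir320 (ENSMUSG00000065528.1) lies on the plus strand of chromosome 14 from 70443510 to 70443591, outside any annotated gene on its strand. The nearest annotated transcript start is that of Polr3d, a subunit gene of RNA polymerase III, which lies 63 nt away and runs in the opposite direction. Of all 2202 hairpins, 104 (4.72%) had a transcript start of either strand at least as near to their 5′ end.

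Mir484 (ENSMUSG00000070074.1) lies on the plus strand of chromosome 16 from 14159626 to 14159692 and has no annotated host on its strand. The start of Marf1, a gene needed for oocyte meiosis, is 359 nt from its 5′ end on the opposite strand, and 305 hairpins (13.9%) had a start as near. A second Marf1 transcript crosses the hairpin on the opposite strand, and 19 nt of an exon of that transcript overlap the hairpin. On the strand of Mir484, the nearest start downstream is that of Nde1, a centrosome and dynein regulator, 3649 nt from the 5′ end of the hairpin.

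Mir877 (ENSMUSG00000077931.1) lies on the minus strand of chromosome 17 from 35960730 to 35960814, inside Abcf1, a gene of translation initiation. Its 85 nt are the whole intron between exons 12 and 13 of the longest annotated Abcf1 transcript, which has 23 exons. Exon 12 ends and exon 13 starts at the bases that flank the hairpin. The 5p product begins at the first base of the intron, and the 3p product ends 1 nt before its last base.

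**Figure D1:**
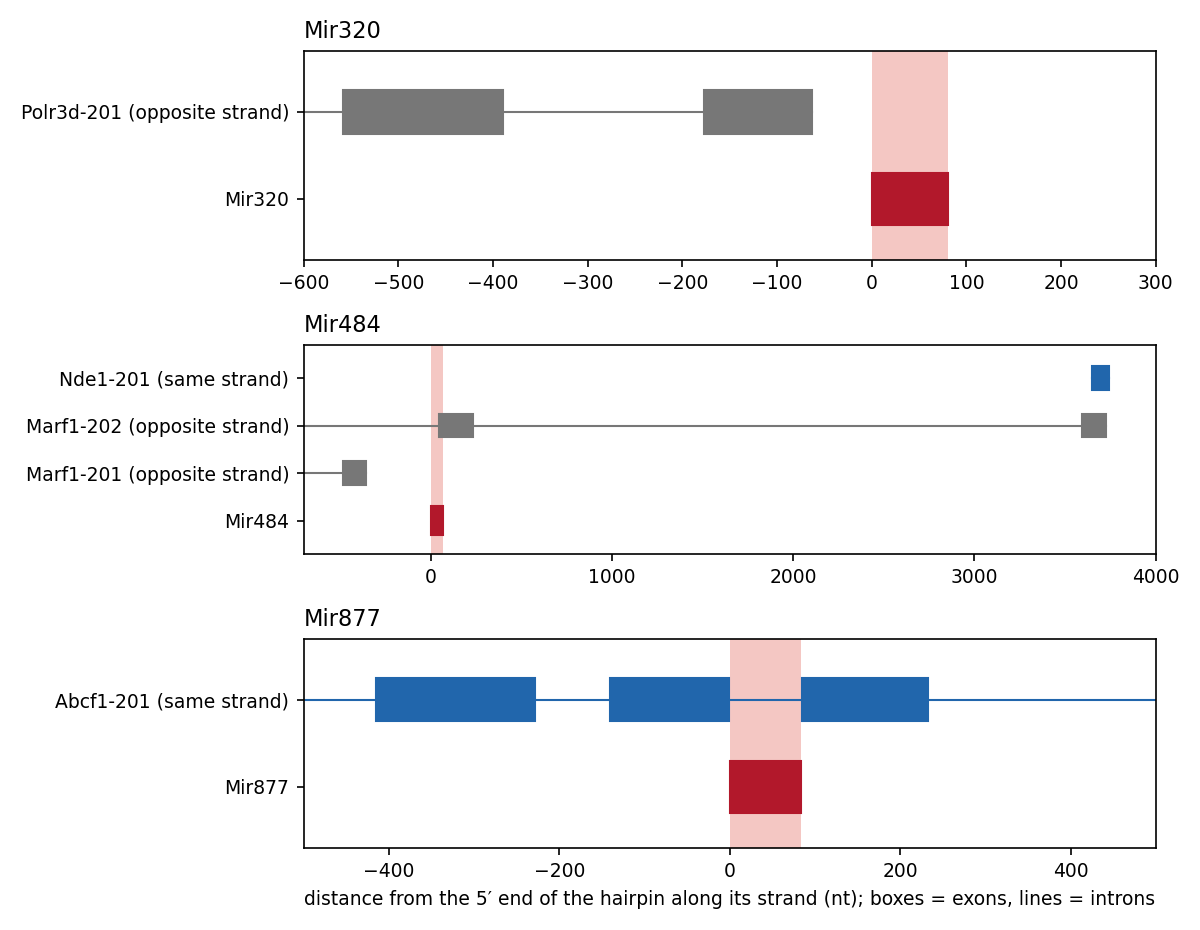
Position of each hairpin (red, with its span shaded) against annotated transcripts, plotted as distance in nt from the 5′ end of the hairpin along its own strand. Boxes are exons and lines introns, in blue for the same strand and grey for the opposite strand. Mir877 fills the gap between Abcf1 exons, while Mir320 and Mir484 have no exon or intron of their own strand over them.

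Mir320 had the highest level of the 3 members in both hearts. It had 5697 counts in replicate 1 and 4611 in replicate 2, out of 2050498 and 2661090 hairpin counts. As CPM, the count over all hairpin counts of the library on the usual scale, the first heart gave 2778 (2707 to 2851 by a 95% Wilson interval) and the second 1733 (1683 to 1783), or 2256 ± 739 CPM. Replicate 1 was the higher library, and the intervals, which cover counting error only, did not overlap. A read covers 1 mature product whatever the length of the hairpin, so CPM was not divided by length. Since whole tissue was sequenced, more cells with the microRNA and more of it per cell cannot be told apart.

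Mir484 had 1924 counts in replicate 1 and 2358 in replicate 2. Its level was 938 CPM (897 to 981) in replicate 1 and 886 CPM (851 to 923) in replicate 2, or 912 ± 36.9 CPM. The 2 libraries lay close together, with overlapping intervals, and Mir484 had the smallest spread of the members relative to its mean.

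Mir877 had 65 counts in replicate 1 and 27 in replicate 2. Its level was 31.7 CPM (24.9 to 40.4) in replicate 1 and 10.1 CPM (6.97 to 14.8) in replicate 2, or 20.9 ± 15.2 CPM. Replicate 1 was the higher library. Both values were above 1.46 and 1.13 CPM, what 3 counts are worth in the respective library, which is the floor used here.

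The order Mir320, Mir484, Mir877 held in both libraries, and no value of one overlapped the next. Of all hairpin counts, the 3 together held 0.375% in the first heart (Wilson interval 0.367 to 0.383) and 0.263% in the second (0.257 to 0.269), or 0.319% ± 0.0792. Mir320 supplied 74.1% of the members' counts in replicate 1 and 65.9% in replicate 2. Mir484 supplied 25.0% and 33.7%, and Mir877 0.846% and 0.386%.

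Among the 288 hairpins with at least 10 counts in both libraries, Mir320 ranked 38 in replicate 1 and 42 in replicate 2. Mir484 ranked 69 and 64, and Mir877 195 and 244. The median of those 288 hairpins was 94.2 CPM by mean, with quartiles at 20.3 and 746 CPM. Mir320 and Mir484 therefore stood above the upper quartile by mean level, and Mir877 near the lower quartile. In the order by mean, Mir320 stood between Mir155, a leukocyte microRNA (2307 ± 954 CPM), and Mir127, an imprinted microRNA (2218 ± 754 CPM). Mir484 stood between Mir532 (939 ± 235 CPM) and Mir30c-2 (830 ± 52.5 CPM). Mir877 stood between Mir26a-1 (10 and 99 counts) and Mir329 (48 and 48 counts). The gap in mean level from Mir484 to Mir30c-2 was larger than the SD of either hairpin, and the other 5 gaps were smaller than both SDs.

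All reads of the 3 hairpins were on the annotated strand. The column for the opposite strand held 0 counts at each of them in both libraries, and the column without regard to strand held the same counts as the stranded one. That holds also for Mir484, over which Marf1 is annotated on the other strand.

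**Figure D2:**
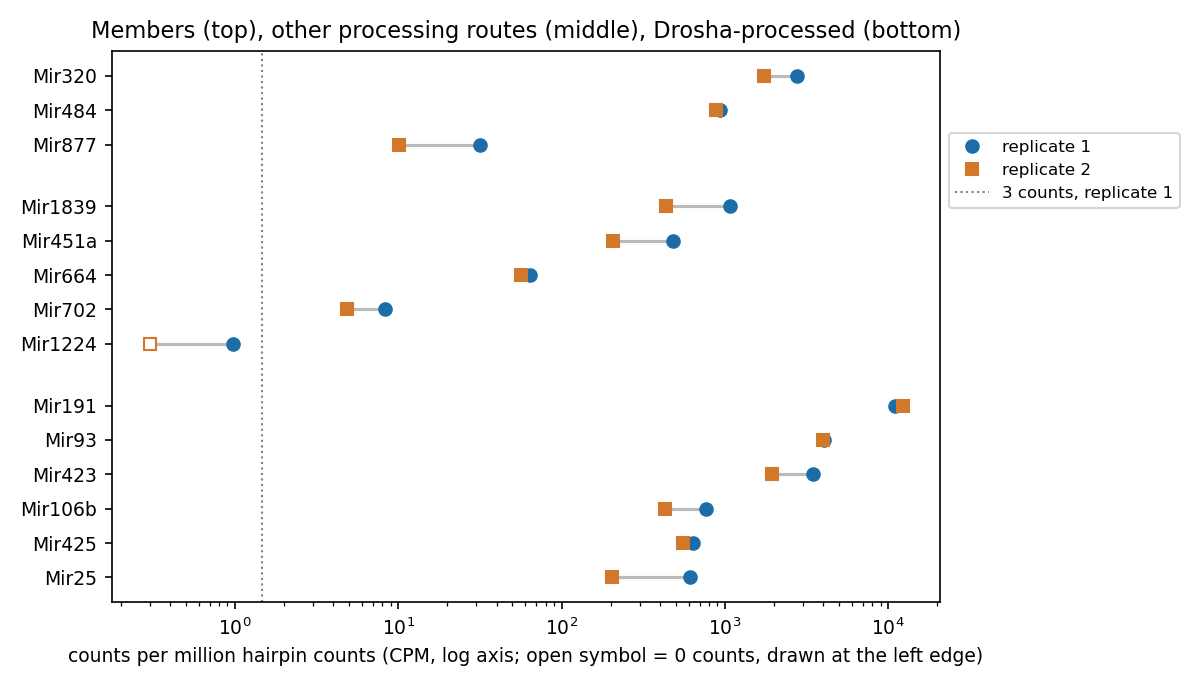
Level of each hairpin in replicate 1 (circles) and replicate 2 (squares) in CPM on a log axis, for the members, 5 hairpins of other processing routes and 6 Drosha-processed hairpins. The dotted line is the floor of 3 counts in replicate 1. Mir320 and Mir484 sit between 886 and 2778 CPM, within the range of the Drosha-processed hairpins, and Mir877 sits at 31.7 and 10.1 CPM.

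The 5 hairpins known for other unusual routes gave a range from under the floor to a mean below that of Mir484. The highest, Mir1839, was above Mir484 in replicate 1 (1078 and 938 CPM) and below it in replicate 2 (436 and 886 CPM). Mir1839, cut from a small Cajal body RNA, had 2210 counts in replicate 1 and 1160 in replicate 2, or 757 ± 454 CPM. Mir664, cut from a small nucleolar RNA, had 132 and 150 counts, or 60.4 ± 5.66 CPM. Mir451a is cut by Drosha and then by Argonaute 2 in place of Dicer. It had 982 and 550 counts, or 343 ± 192 CPM, and is a marker of red blood cells. The mirtron Mir702, whose annotated ends differ by up to 9 nt from an intron of Plod3, had 17 and 13 counts, or 6.59 ± 2.41 CPM. The mirtron Mir1224, in Vwa5b2, had 2 counts in replicate 1 and 0 in replicate 2, both under the floor.

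Widely expressed hairpins that Drosha does cut bracketed the capped members. Mir191 (11659 ± 827 CPM), Mir93 (4031 ± 40.3 CPM) and Mir423 (2704 ± 1076 CPM) had higher means than Mir320. Mir106b (599 ± 242 CPM), Mir425 (597 ± 61.1 CPM) and Mir25 (407 ± 289 CPM) had lower means than Mir484. Each of the 6 had a higher mean than Mir877. The gap between Mir320 and Mir423 was smaller than their SDs.

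Mir877 was 1 of 22 hairpins (0.999% of all) whose ends matched an annotated intron of the same strand exactly. Of these 22, 3 had at least 10 counts in both libraries, a share of 13.6% beside 13.1% of all 2202 hairpins. The highest was Mir3102, in Arhgef17, with 394 counts in replicate 1 and 339 in replicate 2. Mir1981, in the mitochondrial gene Marc2, had 172 and 123 counts, and Mir877 was the lowest of the 3. A further 9 had at least 1 count in either library, and 10 had 0 counts in both. The 22 hairpins together held 654 counts in replicate 1 and 513 in replicate 2, or 319 and 193 CPM, less than Mir484 alone.

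The splice-site letters at the ends of such hairpins follow largely from how they were selected. Of the 22, 16 had a hairpin sequence in the RefSeq table, and 15 of those began with GU and ended with AG. A mature product was listed for 18, and in 16 of them the first mature product began at the first base of the intron. In 15 of the 18, the last mature product ended within 2 nt of the end of the intron. Which of the 2 arms was sequenced cannot be read from these tables, because each value covers the whole hairpin.

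**Figure D3:**
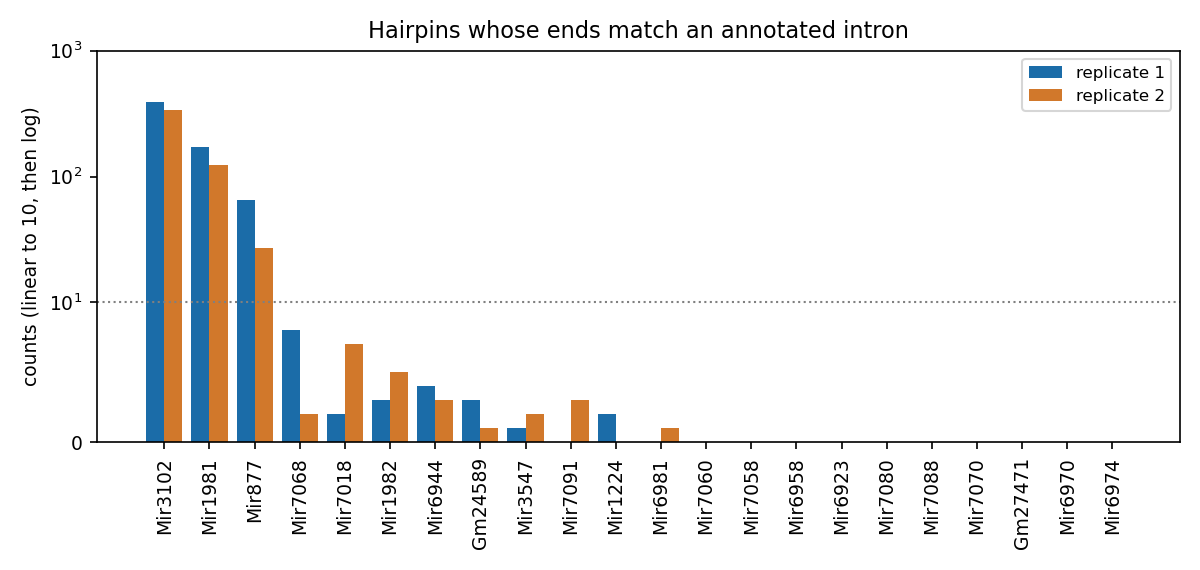
Counts in replicate 1 (blue) and replicate 2 (orange) of the 22 hairpins whose ends match an annotated intron, on an axis that is linear up to 10 counts (dotted line) and logarithmic above. Mir3102, Mir1981 and Mir877 pass 10 counts in both libraries, and 10 hairpins have none.

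Among hairpins at least as near to a transcript start as Mir320, a limit set by Mir320 itself, it supplied most of the counts. The 104 hairpins within those 63 nt held 7740 counts in replicate 1 and 6413 in replicate 2. Mir320 supplied 73.6% of them in replicate 1 and 71.9% in replicate 2, and Mir125b-1 was second with 895 and 487 counts. Of the 104, 15 (14.4%) had at least 10 counts in both libraries. This share holds for that limit only, since Mir126a, with 221621 and 162194 counts, lies just outside it at 77 nt. At 359 nt, the distance of Mir484, the set grew to 305 hairpins with 496674 and 486403 counts.

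Between the 2 hearts, Mir320 and Mir877 were lower in replicate 2, while the sign for Mir484 depended on the scaling and the count minimum. The comparison took in 326 hairpins, those reaching 10 counts in either library. It used an exact two-sided binomial test of each pair of counts against library sizes scaled by TMM in edgeR, with Benjamini-Hochberg adjustment. A log2 ratio below 0 means a lower value in replicate 2, after TMM scaling and with 1 CPM added to both values. The test concerns these libraries, not conditions, and counts only sampling error. It called 62.6% of all hairpins tested (36.2% higher and 26.4% lower in replicate 2), and all 3 members, 1 higher and 2 lower. With that background, the calls of the members are not particular to them.

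For Mir320 the log2 ratio was -0.45 (adjusted exact binomial p = 1.14e-55), and 56.4% of the tested hairpins had a larger absolute ratio. For Mir877 it was -1.34 (adjusted exact binomial p = 2.10e-05), and 17.2% of the hairpins had a larger one. Both kept their direction and stayed past the threshold in all alternatives, between -0.68 and -0.45 for Mir320 and between -1.55 and -1.10 for Mir877. For Mir484 the log2 ratio was 0.15 (adjusted exact binomial p = 0.00176), and 83.1% of the hairpins had a larger one. It turned to -0.08 with scaling by total count (adjusted p = 0.0995) and to -0.02 with at least 50 counts (adjusted p = 0.705). Over its alternatives the adjusted p of Mir484 ran from 0.00176 to 0.705, so no direction can be given for it.

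The median log2 ratio of the 3 members was -0.45, beside 0.09 over all 326 hairpins. Scaling by total count moved the median of all hairpins to -0.14, and the members moved down with it. They then stood at -0.68 (Mir320), -0.08 (Mir484) and -1.55 (Mir877), with Mir320 again the median. The spread between the libraries beyond counting error, the biological coefficient of variation from edgeR, was 0.467 over these hairpins. The binomial test does not include that spread.

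**Figure D4:**
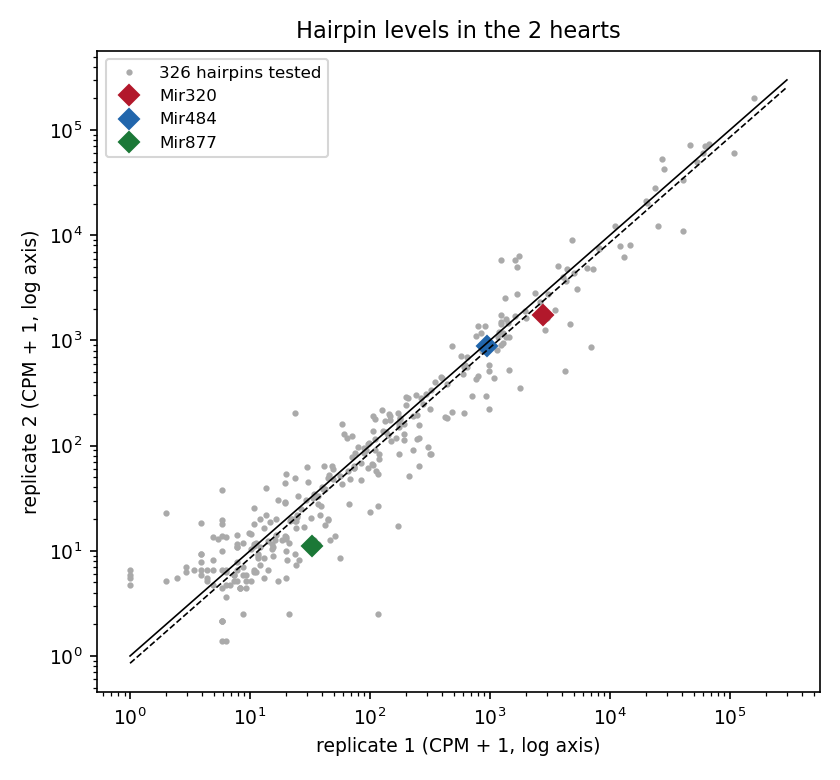
CPM plus 1 of the 326 tested hairpins in replicate 1 (x) and replicate 2 (y), both on log axes, with the members as diamonds. The solid line marks equal CPM and the dashed line equal TMM-scaled CPM. Mir320 and Mir877 lie below both lines, and Mir484 lies between them.

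The balance among the members, taken from the same counts, needs no scaling and differed between the libraries. Mir320 had 2.96 counts per count of Mir484 in replicate 1 (exact binomial interval 2.81 to 3.12) and 1.96 in replicate 2 (1.86 to 2.06). Mir484 had 29.6 counts per count of Mir877 in replicate 1 (23.1 to 38.5) and 87.3 in replicate 2 (59.9 to 133). Neither pair of intervals overlapped, but they cover counting error only. How often the ratios of other hairpin pairs differ as much was not tested. The ratios over the 2 samples were 2.46 ± 0.711 and 58.5 ± 40.8.

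Of the other unusual routes, 4 hairpins were tested, and 2 of them were called lower and 0 higher in replicate 2. Among all hairpins tested, 26.4% were called lower and 36.2% higher, and a list this short shows no shared direction. Mir1839 had a log2 ratio of -1.07 (adjusted exact binomial p = 2.80e-98) and Mir451a of -0.98 (adjusted exact binomial p = 2.78e-38). Mir702 (-0.46, adjusted exact binomial p = 0.444) and Mir664 (0.04, adjusted exact binomial p = 0.885) did not pass, and Mir664 turned negative with scaling by total count (-0.19). Among the 6 Drosha-processed hairpins, 3 were called lower and 2 higher, beside those same shares, with a median of -0.29. Mir25 (-1.36), Mir106b (-0.62) and Mir423 (-0.60) were the lower ones. Mir191 (0.38) and Mir93 (0.21) were the higher ones, although Mir93 was at -0.02 by total count. Mir425 (0.02) was not called, but by total count it was called lower (-0.21, adjusted exact binomial p = 0.000335). The other 2 intron-filling hairpins above 10 counts were Mir1981 at -0.62 (adjusted exact binomial p = 0.000506) and Mir3102 at -0.36 (adjusted exact binomial p = 0.00157). Both were called lower, as were 26.4% of all hairpins tested, so this is not particular to them.

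Likeness of level was measured as the Euclidean distance between log2(CPM + 1) values over the 2 libraries, among the 288 hairpins. The nearest to Mir320 were Mir155 (distance 0.133), Mir423 (0.359) and Mir499 (0.427), the last in a myosin gene of heart muscle. Mir484 was nearest to Mir30c-2 (0.196), Mir181d (0.307) and Mir185 (0.409). The nearest to Mir877 were Mir362 (0.133), with 71 and 26 counts, Mir200b (0.188), with 74 and 28 counts, and Mir192 (0.193), with 68 and 31 counts. With 2 points per hairpin, this is a description of level only.

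The markers of cell types differed between the libraries as well. The cardiac muscle hairpins Mir208a, Mir208b and Mir499, all 3 detected, summed to 4440 CPM in replicate 1 and 8291 CPM in replicate 2. The difference in that sum came from Mir208a (1620 and 5862 CPM), while Mir208b (191 and 112 CPM) was called lower and Mir499 (2629 and 2317 CPM) was not called. The erythroid list (Mir486, Mir451a and Mir144) summed to 1783 and 869 CPM, with 3 of 3 called lower, beside 26.4% of all hairpins tested. The endothelial marker Mir126a stood at 108082 and 60950 CPM and was also called lower. The epithelial list stood at 347 and 211 CPM, with 4 of 6 hairpins detected and Mir205 at 238 and 4 counts. Of its 5 tested hairpins, 2 were called lower and 1 higher. The smooth muscle list (Mir143 and Mir145a) stood at 29354 and 48287 CPM, with 2 of 2 called higher, beside 36.2% of all hairpins tested. The liver marker Mir122, also called higher, stood at 22.9 and 203 CPM. The leukocyte list, with 4 of 4 detected, stood at 4647 and 4648 CPM. Within the leukocyte list, Mir150, Mir142 and Mir223 were called higher in replicate 2 (log2 ratios 1.13, 0.76 and 1.03) and Mir155 lower (-0.64). The part of these differences in the values of the members was not tested.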

How the data were processed

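The authors deposited raw read counts per annotated hairpin for each library. The build is mm10 with GENCODE M21, per the file headers. Which aligner and counter made them is not given in the sources used here. Counts on the strand of the hairpin were used. Reads matching several places (38.5% of replicate 1 and 41.6% of replicate 2), unmapped reads (14.1% and 11.5%) and reads in no hairpin (6.48% and 5.64%) stayed out of library totals. Totals were 2050498 and 2661090 hairpin counts. Intervals and floors cover counting error only, since PCR copies were not told apart.

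CPM, ranks, Wilson and exact intervals were computed in Python 3.11.15 with scipy 1.17.1, and TMM factors, dispersion and binomial tests in R 4.3.3 with edgeR 4.0.16. A hairpin was called at an adjusted p under 0.05. The test was tested on simulated data. Those counts had no spread beyond counting error, so they cannot show how the test behaves on these libraries. Alternatives were the unstranded column, other denominators, total-count and DESeq2 1.42.0 scaling, count minimums of 1 and 50, pseudocounts of 0.5 and 5 CPM, leaving out the 10 highest hairpins, and leaving out each replicate. Named hairpins were the members, fixed lists of other processing routes, Drosha-processed hairpins and cell type markers, the neighbours in rank and the 3 nearest in level. Those matched by intron or start position were added later by annotation alone, and Mir3102, Mir1981 and Mir125b-1 were named after their values were seen. The members and lists were chosen with earlier results of these data known.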

Additional observations from a re-analysis of the deposited data

Results flagged for a closer look

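Reads outside the hairpin counts exceeded the floor of 3 counts and were listed for that reason alone. That floor is meant for the count of a single hairpin, so passing it says nothing about the members. Reads matching several places numbered 1925044 in replicate 1 and 2686901 in replicate 2. Reads in no hairpin numbered 324547 and 363956. How many of either belong to the members was not tested.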

How the results depend on the processing

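The CPM levels moved with the denominator, and the call of Mir484 was lost with other scalings, other count minimums and without the 10 highest hairpins. In the unstranded column, whose total is smaller, the means were 3195 CPM for Mir320, 1291 CPM for Mir484 and 29.7 CPM for Mir877, and the summed share was 0.452%. Over all reads they were 926, 375 and 8.58 CPM and 0.131%. Without the 10 highest hairpins the means were 7055, 2914 and 63.5 CPM for Mir320, Mir484 and Mir877, and the share 1.00%. Leaving out 1 replicate gave 1733 to 2778, 886 to 938 and 10.1 to 31.7 CPM, and 0.263% to 0.375%. The log2 ratio of Mir484 was 0.0706 with DESeq2 size factors, 0.0349 without the 10 highest hairpins and 0.0429 with at least 1 count, none past the threshold. It reversed to -0.0825 by total count and to -0.0204 with at least 50 counts. The counts of Mir484 were the same in these settings, so its log2 ratio moved only with the library sizes used for scaling. Hairpins called higher in replicate 2 fell from 118 to 76 by total count, against 117 lower, and to 74 with at least 50 counts, where fewer hairpins (223) were tested. The 27 counts of Mir877 in replicate 2 limit its precision. No paired analysis was possible because there is 1 group.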
